A study of Mus musculus with 20 samples.

Results

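Malat1, Neat1, Meg3 and Snhg11 are long noncoding RNAs that stay largely in the cell nucleus, and they were measured by RNA-seq in mouse frontal cortex. The genes were taken by name from the rows of the raw count table: the rule named 7, which also include Rian, Mirg and Miat, and 4 of these names had a row among 25965. Rian, Mirg and Miat were not analysed here. The tissue came from C57BL/6 mice aged 5 months that carried a knock-in allele of Tardbp with the protein change Q331K in TDP-43. There were 8 libraries from homozygous mice (Q331K/Q331K), 6 from heterozygous mice (Q331K/+) and 6 from wild-type mice (+/+), and no transgene or drug treatment is given in the labels. Nothing in the labels ties libraries to litters or batches, so p-values measure only the spread between these libraries, and the question for each RNA was whether its level differed with the number of Q331K alleles.

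Malat1 is known to gather in nuclear speckles, the bodies that store splicing factors, and Neat1 is the scaffold of paraspeckles, which form around its long isoform. Meg3 is transcribed from the maternal copy of the imprinted Dlk1–Dio3 region and Snhg11 hosts small nucleolar RNAs in its introns, and both are known to be abundant in neurons. TDP-43 is an RNA-binding protein that prefers UG repeats. Malat1 and Neat1 have been found bound by it in human brain, and TDP-43 is itself a paraspeckle protein.

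Malat1 spans 5795690 to 5802671 of chromosome 19 (GRCm38, minus strand), and Neat1, upstream of it on the same strand, spans 5824708 to 5845478. Meg3 spans 109541001 to 109571726 of chromosome 12 and Snhg11 158375638 to 158386145 of chromosome 2, both on the plus strand. GENCODE M21 calls the first 3 long intergenic noncoding RNAs and lists Snhg11 as protein coding, whereas RefSeq lists it as a long noncoding RNA. The longest annotated transcripts have 6983 bases for Malat1, 20771 for Neat1, 14548 for Meg3 and 5864 for Snhg11. The 30 bases richest in TG repeats in each of these transcripts are shown because UG repeats are the sequence TDP-43 is known to bind. Sequences were read from the GENCODE M21 transcripts, thus on the transcribed strand, with positions given in GRCm38. Capitals mark runs of at least 3 TG units.
Malat1, chr19:5797803-5797832, minus strand: cttctgttctgctagtgagTGTGTGatgtg
Neat1, chr19:5826022-5826051, minus strand: gTGTGTGTGTGTGTGTGTGTGTGTGgtgtg
Meg3, chr12:109565105-109565134, plus strand: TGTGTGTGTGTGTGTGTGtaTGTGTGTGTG
Snhg11, chr2:158386045-158386074, plus strand: tcatgcccctgccaccatgcctgcTGTGTG

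The motif TGTGTG, searched on the transcribed strand with overlapping matches counted, occurred 53 times in the Meg3 transcript, or 3.64 times per kilobase. Neat1 held 48 matches, or 2.31 per kilobase, Snhg11 4 matches, or 0.68 per kilobase, and Malat1 3 matches, or 0.43 per kilobase. The complementary motif CACACA was found 35 times in Neat1, 6 times in Meg3, 1 time in Malat1 and 0 times in Snhg11. Among the longest transcripts of 40427 genes with at least 500 bases, 59.5% held TGTGTG, with a median of 0.41 per kilobase, and 1.49% of their 30-base windows held it. By density Meg3 stood at percentile 95.7 of these genes, Neat1 at 92.3, Snhg11 at 62.6 and Malat1 at 50.9. The longest uninterrupted TG run was 28 bases in Meg3, 24 in Neat1 and 6 in both Malat1 and Snhg11. The Neat1 window shown lies outside the short isoform, Neat1-202, which runs from 5842307 to 5845476.

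The libraries were made from polyadenylated RNA, which bears on how Malat1 and Neat1 were captured. The mature ends of Malat1 and of long Neat1 are known to be cut by RNase P without a poly(A) tail, whereas short Neat1 is polyadenylated. Malat1 has a run of 12 A in the genome, 298 bases before its annotated end, next to the uridine-rich stretches and the tRNA-like RNA for which this end is known. It is shown because a run of this kind can pair with oligo(dT). The run is in capitals in 172 bases of the minus strand.
Malat1, chr19:5795918-5796089: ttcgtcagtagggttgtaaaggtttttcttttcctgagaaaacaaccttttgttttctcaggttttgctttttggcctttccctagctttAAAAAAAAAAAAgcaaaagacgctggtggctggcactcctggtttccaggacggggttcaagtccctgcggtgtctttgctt
How much of each RNA was captured was not tested.

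Library totals were 69312426 to 105412832 counts in homozygotes, 61282647 to 111440766 in heterozygotes and 75168829 to 96821696 in wild type. Mitochondrial genes took 6.26 to 9.31% of counts in homozygotes, 6.51 to 10.5% in heterozygotes and 6.99 to 11.5% in wild type. Tardbp, the edited gene, had 234 to 264 CPM (counts relative to the TMM-scaled library size) in homozygotes with a median of 243, 215 to 235 CPM in heterozygotes with a median of 233, and 210 to 227 CPM in wild type with a median of 218. Its log2 change in homozygotes against wild type was 0.17 (SE 0.029, edgeR adjusted p = 0.00372). It was 0.18 (edgeR adjusted p = 0.0548) without the 7 libraries with a tissue marker score over 1 described next. Of 33 alternative fits only this 1 lost the call, and with 1 library left out the edgeR adjusted p was at most 0.0182. Cortical excitatory neuron markers were high in each library (12 of 12 with a row, summing to 8092 to 8904 CPM in homozygotes, 8533 to 9378 in heterozygotes and 8474 to 9631 in wild type). In 5 homozygous, 2 heterozygous and 0 wild-type libraries an ependymal, olfactory bulb or striatal marker score (a mean z score of log2 CPM) was over 1. The sum of 9 ependymal markers was 10.5 to 27.4 CPM in homozygotes, 11.4 to 20.5 in heterozygotes and 10.8 to 12.6 in wild type. The sum of 10 olfactory bulb and neuroblast markers was 86.0 to 183 CPM in homozygotes, 80.9 to 96.6 in heterozygotes and 77.1 to 104 in wild type. No marker was at 0 in all libraries. In whole tissue, fewer cells of a type and less RNA per cell cannot be told apart.

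The 4 RNAs together took 0.78 to 1.00% of all counts in homozygotes, 0.82 to 0.98% in heterozygotes and 0.83 to 0.95% in wild type. By mean CPM over the 20 libraries, Meg3 was the 6th and Snhg11 the 13th most abundant of 16690 rows tested, at 5710 and 2496 CPM. Malat1 stood at place 140 with 703 CPM and Neat1 at place 1911 with 113 CPM. Per kilobase of all annotated exons, Meg3 was at 316 CPM per kilobase, Snhg11 at 293, Malat1 at 101 and Neat1 at 5.44. This order depends on the transcript length used. With the longest transcripts Snhg11 came before Meg3, at 426 and 392 CPM per kilobase. If all Neat1 counts came from Neat1-202, which has 3.004 kb of exon, Neat1 would be at 37.6 CPM per kilobase, below Malat1, and if all came from Neat1-203, with 1.03 kb, it would be at 109.7, above Malat1. The gene counts do not give the isoform. The counts behind these levels ran from 7210 for Neat1 in the heterozygous library with the fewest to 584398 for Meg3 in the homozygous library with the most.

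None of the 4 RNAs passed the test in any of the 4 comparisons. Their levels overlapped between the groups of each pair of genotypes, and the share of all rows that did so was not computed. In homozygotes against wild type, 0 of the 4 were called at an edgeR adjusted p under 0.05, where 1.56% of all 16690 rows were called (107 higher and 154 lower, or 122 higher and 102 lower with upper-quartile scaling). DESeq2 called 0 of the 4 and 3.82% of all rows. In heterozygotes against wild type, 0 of the 4 and 0.0% of all rows were called by edgeR, with 532 rows (3.19%) at an unadjusted p under 0.05 and 2 rows (0.012%) called by DESeq2. Homozygotes against heterozygotes gave 0 of the 4 beside 0.108% of all rows (0.617% by DESeq2), and the trend per Q331K allele gave 0 of the 4 beside 1.83% (4.17% by DESeq2). Beside shares this low, a count of 0 of 4 does not set the RNAs apart from other rows.

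**Figure D1:**
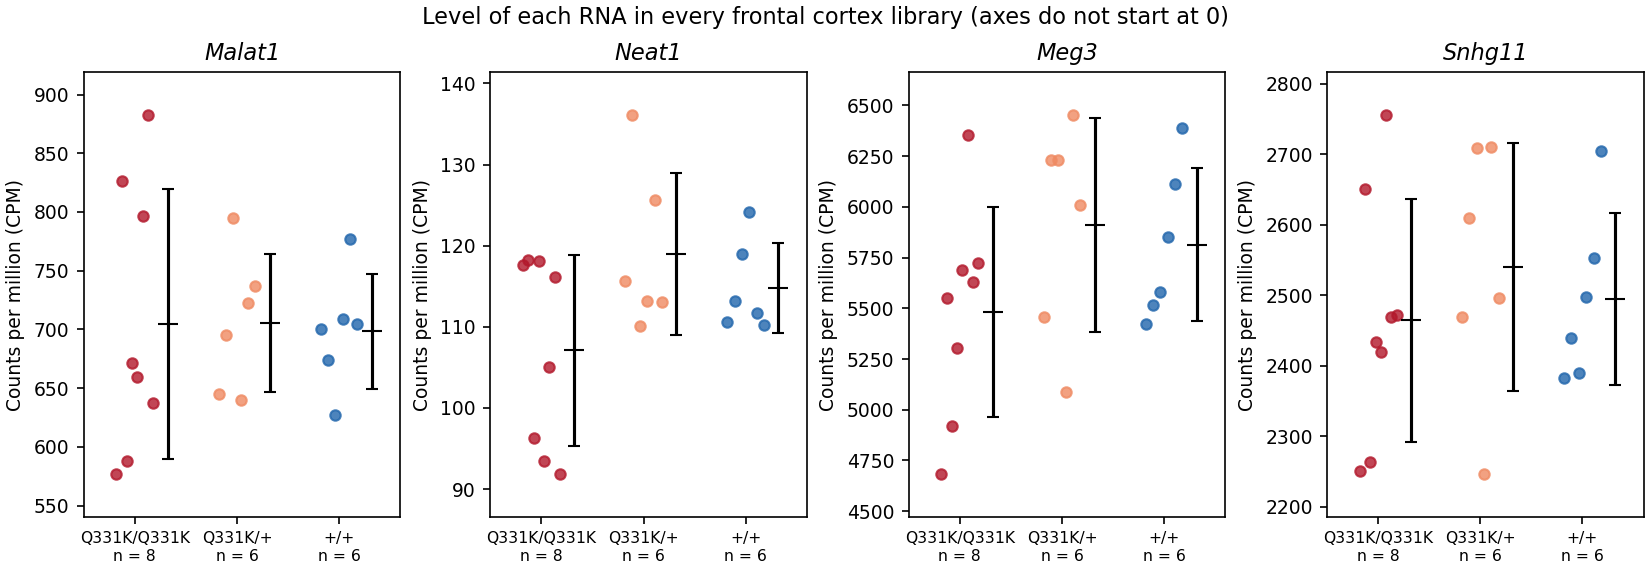
Level of Malat1, Neat1, Meg3 and Snhg11 (CPM on the vertical axis, which does not start at 0) in each library of the homozygous, heterozygous and wild-type groups. Points are libraries, and the black mark with its bar is the mean with the SD. The groups overlap in every panel, and 3 homozygous libraries have Neat1 under 100 CPM.

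Malat1 had 577, 826, 588, 672, 659, 797, 882 and 638 CPM in homozygous libraries 1 to 8, 645, 695, 795, 640, 723 and 737 CPM in heterozygous libraries 1 to 6, and 700, 674, 627, 709, 777 and 705 CPM in wild-type libraries 1 to 6. The homozygous libraries were the most spread out: 3 exceeded each wild-type library and 2 lay below each of them. The mean ± SD was 705 ± 115 CPM in the 8 homozygous, 706 ± 58.8 CPM in the 6 heterozygous and 699 ± 49.0 CPM in the 6 wild-type libraries. The log2 change in homozygotes against wild type was 0.01 with a 95% interval of -0.17 to 0.20 (edgeR adjusted p = 0.961). This interval corresponds to changes between -11.1% and 14.6%. Against heterozygotes the log2 change of homozygotes was -0.0018 (edgeR adjusted p = 0.998), and that of heterozygotes against wild type was 0.01 (edgeR adjusted p = 0.9996). The trend per allele was 0.0061 (SE 0.043, edgeR adjusted p = 0.960). The sign of these small Malat1 changes turned with the processing and with single libraries left out, as given in the closing section.

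Neat1 had 118, 118, 96.3, 118, 93.5, 105, 116 and 91.9 CPM in homozygous libraries 1 to 8, 116, 136, 110, 113, 126 and 113 CPM in heterozygous libraries 1 to 6, and 111, 113, 119, 124, 112 and 110 CPM in wild-type libraries 1 to 6. The homozygous libraries were uneven: 4 of 8 (libraries 3, 5, 6 and 8) lay below the lowest wild-type and the lowest heterozygous library, and the other 4 lay within the range of both. The mean ± SD was 107 ± 11.8 CPM in the 8 homozygous, 119 ± 9.96 CPM in the 6 heterozygous and 115 ± 5.58 CPM in the 6 wild-type libraries. The log2 change in homozygotes against wild type was -0.10 with a 95% interval of -0.23 to 0.03 (edgeR adjusted p = 0.466).

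Neat1 had its largest difference in homozygotes against heterozygotes, with a log2 change of -0.15 and a 95% interval of -0.28 to -0.02. Its unadjusted edgeR p was 0.0259 and its adjusted p over all rows 0.395, and a two-sided exact permutation test with 3003 arrangements gave p = 0.0729. In this comparison 1838 of all rows had an unadjusted p under 0.05. The log2 change in heterozygotes against wild type was 0.05 (edgeR adjusted p = 0.9996), and the trend per allele was -0.05 (SE 0.034, edgeR adjusted p = 0.438). Neat1 kept its direction in homozygotes against wild type under each of 33 alternatives, with log2 changes between -0.19 and -0.07 and a lowest adjusted p of 0.0984.

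Meg3 had 4685, 5551, 4918, 5306, 5689, 6354, 5631 and 5723 CPM in homozygous libraries 1 to 8, 5456, 6231, 6232, 5087, 6451 and 6010 CPM in heterozygous libraries 1 to 6, and 5425, 5518, 5580, 5853, 6113 and 6386 CPM in wild-type libraries 1 to 6. Of the homozygous libraries, 3 lay below the lowest wild-type library, and 0 above the highest. The mean ± SD was 5482 ± 517 CPM in the 8 homozygous, 5911 ± 528 CPM in the 6 heterozygous and 5813 ± 377 CPM in the 6 wild-type libraries. The log2 change was -0.08 in homozygotes against wild type, with a 95% interval of -0.21 to 0.05 (edgeR adjusted p = 0.545), and -0.11 in homozygotes against heterozygotes (edgeR adjusted p = 0.533). With 3 surrogate variables in the fit, the change in homozygotes against wild type turned to 0.05 (edgeR adjusted p = 0.816). In heterozygotes against wild type it was 0.02 (edgeR adjusted p = 0.9996), and the trend per allele was -0.05 (SE 0.032, edgeR adjusted p = 0.504).

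Snhg11 was the steadiest of the 4. It had 2250, 2650, 2264, 2434, 2419, 2756, 2470 and 2473 CPM in homozygous libraries 1 to 8, 2469, 2610, 2709, 2247, 2710 and 2497 CPM in heterozygous libraries 1 to 6, and 2383, 2440, 2390, 2498, 2554 and 2704 CPM in wild-type libraries 1 to 6. The mean ± SD was 2464 ± 173 CPM in the 8 homozygous, 2540 ± 176 CPM in the 6 heterozygous and 2495 ± 122 CPM in the 6 wild-type libraries. Homozygous libraries 1 and 3, which were also the lowest of their group in Meg3 and Malat1, lay below each wild-type library. The log2 change in homozygotes against wild type was -0.02 with a 95% interval of -0.11 to 0.08 (edgeR adjusted p = 0.890), that is, between -7.48% and 5.47%. It was 0.03 in heterozygotes against wild type (edgeR adjusted p = 0.9996) and -0.04 in homozygotes against heterozygotes (edgeR adjusted p = 0.758), and the trend per allele was -0.01 (SE 0.023, edgeR adjusted p = 0.862). The 12 exact two-sided permutation tests over the 4 RNAs and 3 pairs of genotypes gave p-values from 0.0729, for Neat1 above, to 0.996.

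**Figure D2:**
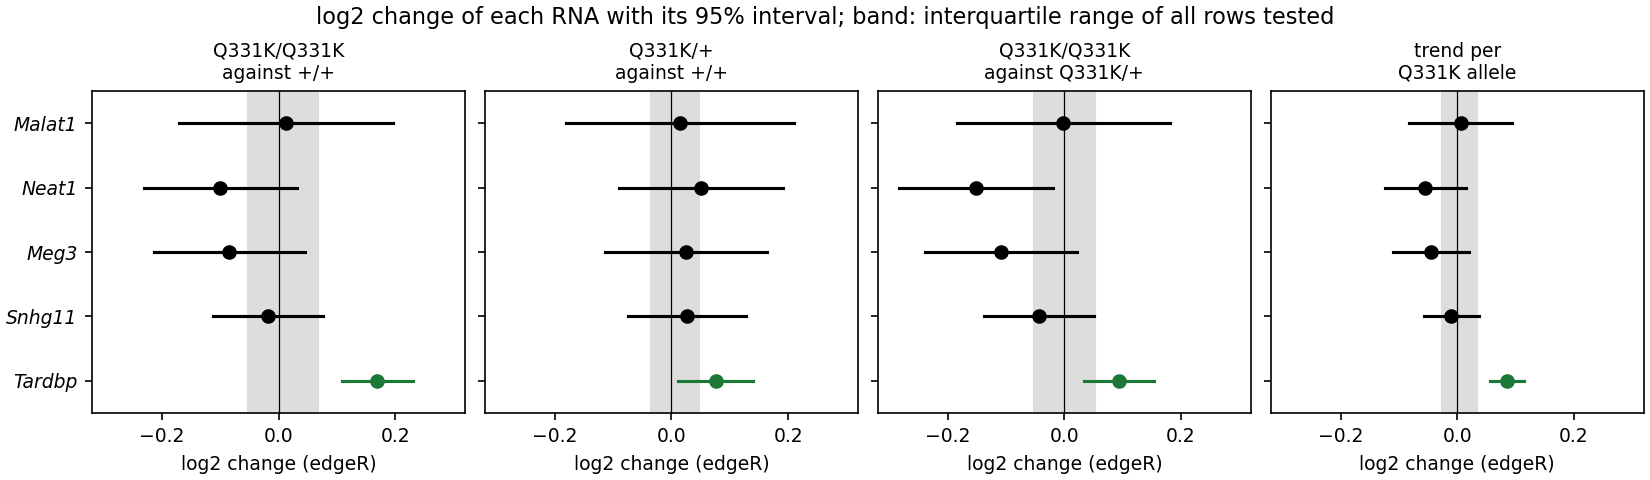
log2 change (edgeR, horizontal axis) of the 4 RNAs and of Tardbp in each comparison, with lines for the 95% interval and a grey band for the interquartile range of all rows tested. In homozygotes against wild type the intervals of the 4 RNAs include 0 and that of Tardbp, at 0.17, does not. The Neat1 interval excludes 0 in homozygotes against heterozygotes, at an adjusted p of 0.395 by edgeR.

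These intervals set what the data could show. The smallest change called among all rows in homozygotes against wild type was 0.10 on the log2 scale, and the median of the called changes was 0.22. Tardbp, with a standard error of 0.029, was called at 0.17. The standard errors were 0.088 for Malat1, 0.063 for Neat1, 0.062 for Meg3 and 0.046 for Snhg11, all above that of Tardbp. Each of the 4 RNAs had at least 7210 counts in each library, and the part of counting error in these standard errors was not tested.

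The spread within genotypes differed between the 4 RNAs. The SD of log2 CPM around the genotype means was 0.17 for Malat1, 0.13 for Neat1, 0.12 for Meg3 and 0.09 for Snhg11, against a median of 0.10 over all rows tested. Most rows at low counts vary more, so each RNA was also set beside rows within 2-fold of its own level. Malat1 was more variable than 97.3% of 374 such rows and Neat1 more than 94.1% of 3151, while Snhg11 was above 77.8% of 45 and Meg3 above 37.5% of 8. The SD of Malat1 was 0.23 in homozygotes, 0.12 in heterozygotes and 0.10 in wild type, and that of Neat1 was 0.16 in homozygotes, 0.12 in heterozygotes and 0.07 in wild type. The difference in spread between genotypes was not tested, and 5 of the 8 homozygous libraries had a tissue marker score over 1, against 2 of 6 heterozygous and 0 of 6 wild-type libraries. The part of these scores in the spread was not tested.

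Meg3 and Snhg11 varied together across libraries. With the genotype means removed, Pearson's r of their log2 CPM over 20 libraries was 0.92 and Spearman's rho 0.91 (permutation p = 1e-05, the smallest that 100000 permutations within genotypes can give, and 6e-05 adjusted over 6 pairs). Within homozygotes r was 0.88, within heterozygotes 0.94 and within wild type 0.97, and without the 2 libraries farthest from the median it was 0.88. The ratio of Meg3 to Snhg11 counts, which does not depend on library size, averaged 2.22 ± 0.10 (SD) in the 8 homozygous, 2.32 ± 0.08 in the 6 heterozygous and 2.33 ± 0.05 in the 6 wild-type libraries.

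Malat1 followed the same libraries less closely. Its r was 0.71 with Snhg11 (rho 0.75, adjusted permutation p = 0.00366 for r and 0.00138 for rho) and 0.66 with Meg3 (rho 0.65, adjusted permutation p = 0.00738 for r and 0.007 for rho). Without the 2 farthest libraries these r were 0.78 and 0.64. Neat1 stood apart from the other RNAs, and none of its 3 pairs passed. Its r was 0.23 with Malat1 (rho 0.21, adjusted permutation p = 0.651 and 0.584), 0.14 with Snhg11 (rho 0.18, adjusted permutation p = 0.740 and 0.584) and -0.03 with Meg3 (rho -0.06, adjusted permutation p = 0.917 and 0.818). The r of Neat1 and Meg3 depended on the tissue scores: with the ependymal, olfactory bulb and meningeal scores also removed it was 0.51. The ratio of Neat1 to Malat1 counts averaged 0.154 ± 0.025 (SD) in the 8 homozygous, 0.170 ± 0.020 in the 6 heterozygous and 0.165 ± 0.016 in the 6 wild-type libraries, although the genes are neighbours on chromosome 19.

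**Figure D3:**
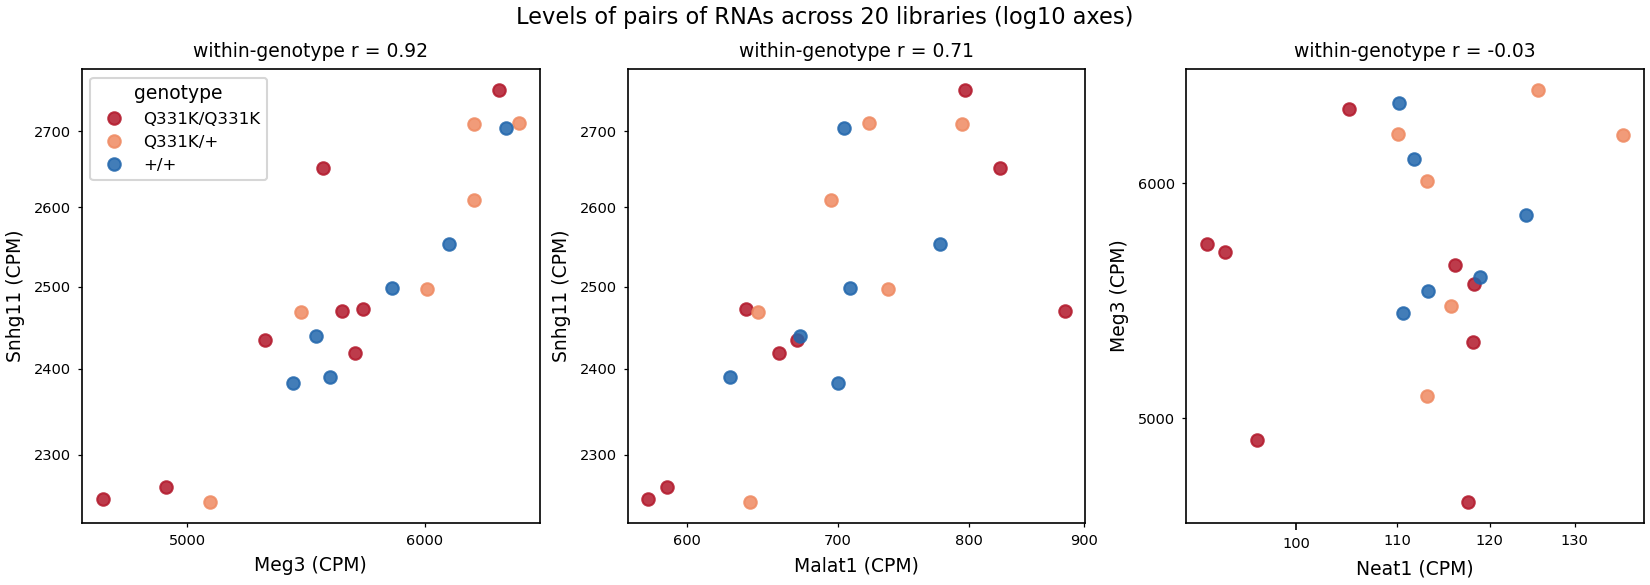
Level of Snhg11 against Meg3, Snhg11 against Malat1 and Meg3 against Neat1 (CPM, log10 axes) in 20 libraries coloured by genotype, with Pearson's r after removal of genotype means. Meg3 and Snhg11 lie along 1 line through all genotypes (r = 0.92), and Neat1 and Meg3 do not (r = -0.03).

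Across the 20 libraries, the named genes whose within-genotype pattern was most like that of Snhg11 were Trank1 (r = 0.95), Meg3 (0.92), Usp48 (0.91), Sfrs18 (0.90) and Lrrc45 (0.89), out of 12539 genes with at least 1 CPM. For Meg3 they were Akap8l (0.92), L3mbtl1 (0.92), Snhg11 (0.92), Leng8 (0.92) and Celsr3 (0.91). Meg3 was thus at place 2 for Snhg11 and Snhg11 at place 3 for Meg3. For Malat1 the 5 were Rrnad1 (0.73), Gdpd2 (0.73), Otud3 (0.73), Stx5a (0.72) and Snhg11 (0.71). In the other direction, Malat1 was only at place 171 for Snhg11 and at place 344 for Meg3. For Neat1 they were Frmd4b (0.80), Ctsh (0.78), Dnase2a (0.77), P2rx6 (0.76) and Papss2 (0.76), and Malat1 was at place 2626. These are descriptions over libraries that differed in depth and in tissue marker scores. The part of either in these r was not tested.

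The RNAs were also set beside marker levels. Of 56 relations between the 4 RNAs and 13 marker lists or the library total, computed after the data were seen, 0 passed adjustment by Pearson's r and 2 by Spearman's rho. Malat1 varied with the score of the 13 mitochondrial genome transcripts (r = 0.65, adjusted permutation p = 0.0877, and rho = 0.71, adjusted permutation p = 0.0328), and r was 0.74 without the 2 farthest libraries. Snhg11 did so with endothelial and mural cell markers (r = 0.61, adjusted permutation p = 0.0877, and rho = 0.73, adjusted permutation p = 0.0328). Without the 2 farthest libraries this r was 0.58. With the same markers Meg3 had r = 0.55 and rho = 0.55 (adjusted permutation p = 0.110 and 0.131). Malat1 had r = 0.33 and rho = 0.46 (adjusted permutation p = 0.422 and 0.207), and Neat1 r = 0.29 and rho = 0.31 (adjusted permutation p = 0.510 and 0.516). The r of Snhg11 with the mitochondrial score was 0.66 (rho 0.63, adjusted permutation p = 0.0877 and 0.124) and that of Meg3 was 0.59 (rho 0.59, adjusted permutation p = 0.110 and 0.131). The part of these markers in the shared variation was not tested.

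For Neat1 the highest Pearson's r were those with the ependymal list (r = 0.66, rho 0.54, adjusted permutation p = 0.110 and 0.207) and with the oligodendrocyte list (r = 0.62, rho 0.60, adjusted permutation p = 0.110 and 0.131), and without the 2 farthest libraries these r were 0.53 and 0.43. The astrocyte list gave r = 0.56 and rho = 0.56 (adjusted permutation p = 0.194 and 0.145). The microglia list gave r = 0.55 and rho = 0.41 (adjusted permutation p = 0.194 and 0.416). Without the 2 farthest libraries these r were 0.42 and 0.41. With the excitatory neuron list r was -0.49 and rho -0.60 (adjusted permutation p = 0.359 and 0.131). That r was -0.65 without the 2 farthest libraries. The 10 oligodendrocyte markers summed to 2682 to 4302 CPM in homozygotes, 3492 to 5062 CPM in heterozygotes and 3197 to 4442 CPM in wild type. Among the 4 homozygous libraries with the lowest Neat1, the oligodendrocyte score was 0.50 in library 3, -0.73 in library 5, -1.29 in library 6 and -2.07 in library 8. Libraries 5 and 8 also had the highest olfactory bulb scores, 2.10 and 2.05. The part of these cell types in the Neat1 levels was not tested.

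Of 30 genes for paraspeckle proteins tested, edgeR called 1 higher in homozygotes than in wild type, Tardbp itself, and 0 lower, where 1.56% of all rows were called. Counts this small do not set this list or the lists below apart from that share. The median log2 change was 0.03, against 0.0013 over all rows. The next smallest p-values were those of Srsf10, a splicing repressor, at -0.12, of Sfpq, which with Nono forms the core of paraspeckles, at -0.11, and of Rbmx at 0.06 (edgeR adjusted p = 0.117, 0.230 and 0.231). Sfpq had 134 to 172 CPM in homozygotes with a median of 164, 160 to 186 CPM in heterozygotes with a median of 171, and 165 to 181 CPM in wild type with a median of 171, and these ranges overlapped. Of 26 nuclear speckle proteins, 0 were called in either direction, with a median of 0.01. The 4 with the smallest p were the RNA helicase gene Ddx39b at 0.07, the SR protein genes Srsf7 at -0.09 and Srsf5 at 0.08, and the splice site factor gene U2af2 at -0.05 (edgeR adjusted p from 0.218 to 0.289). Of 3 splicing factors known to bind Miat (Celf3, Srsf1 and Sf1), 0 were called, with a median of 0.02.

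Of 27 genes for RNA decay and 3′ end processing, Xrn2 rose in homozygotes and 0 fell by edgeR, beside 1.56% of all rows, and the median of the list was -0.02. Xrn2 encodes a nuclear exonuclease that degrades RNA from its 5′ end after cleavage. It had 50.7 to 59.6 CPM in homozygotes with a median of 54.6, 47.8 to 52.9 CPM in heterozygotes with a median of 51.6, and 46.6 to 50.8 CPM in wild type with a median of 48.4. The homozygous and wild-type ranges overlapped at their ends, and the log2 change was 0.16 (SE 0.036, edgeR adjusted p = 0.0216). The call did not hold without wild-type library 5 (log2 change 0.15, edgeR adjusted p = 0.0597) or without wild-type library 6 (0.15, edgeR adjusted p = 0.0658). It was also lost with 3 surrogate variables (0.14, edgeR adjusted p = 0.183). With the ependymal, olfactory bulb and meningeal scores as covariates the change was 0.19 (SE 0.046, edgeR adjusted p = 0.0501). Without the 7 libraries with a tissue score over 1 it was 0.19 (SE 0.048, edgeR adjusted p = 0.139). The call was lost in both of these settings, at a larger change and a larger SE. The next were the decay helicase gene Upf1 at -0.09, the methyltransferase gene Mettl16, whose protein is known to bind the Malat1 triple helix, at -0.11, and the exosome adaptor gene Zfc3h1 at 0.06 (edgeR adjusted p from 0.248 to 0.393).

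In the Dlk1–Dio3 region, 0 of 10 tested genes were called by edgeR, with a median log2 change of -0.01. Dlk1, the paternally expressed gene upstream of Meg3, had 7.02, 3.01, 1.34, 1.41, 1.99, 1.96, 1.44 and 0.546 CPM in homozygous libraries 1 to 8, 0.932 to 1.77 CPM in heterozygotes with a median of 1.28, and 0.528 to 1.26 CPM in wild type with a median of 0.926. It was thus above the highest wild-type level in 7 of 8 homozygous libraries, and library 1, which had the highest ependymal score (2.21), stood far above the others. The log2 change was 1.36 (SE 0.43), which did not pass by edgeR (adjusted p = 0.122) and passed by DESeq2 (adjusted p = 0.0319). The change was 0.53 with the ependymal, olfactory bulb and meningeal scores as covariates (edgeR adjusted p = 0.579), the lowest among 33 alternatives, 0.56 with 3 surrogate variables (edgeR adjusted p = 0.485) and 0.79 without the 7 libraries with a tissue score over 1 (edgeR adjusted p = 0.233). Without homozygous library 1 it was 0.87 (edgeR adjusted p = 0.144), and the homozygous mean was 1.67 ± 0.76 CPM (SD, n = 7) in place of 2.34 ± 2.02 CPM (SD, n = 8). Meg3 itself had its lowest level in that library. The next smallest p-values in the region were those of Wdr25 and Slc25a29, both at -0.12 (edgeR adjusted p = 0.287 and 0.323), and then of Meg3.

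By edgeR, no tested gene within 100 kb of the 4 RNAs was called. The counts were 0 of 11 tested neighbours of Malat1, 0 of 12 of Neat1, 0 of 1 of Meg3 and 0 of 3 of Snhg11 in any of the 4 comparisons, and Malat1 and Neat1 share most of theirs. The 1 tested neighbour of Meg3 is Dlk1, which DESeq2 called in homozygotes against wild type, as above, and in the trend per allele (adjusted p = 0.0225). In the trend, edgeR called Dlk1 with the replicate block (adjusted p = 0.0448) and without homozygous library 8 (adjusted p = 0.0406), and not in the fit of all 20 libraries by allele number alone (adjusted p = 0.0850). Of 15 tested genes of the wider Malat1 and Neat1 region, 0 were called. The smallest p-values were those of the mitochondrial carrier gene Slc25a45 at 0.18, of the signalling gene Sipa1 at -0.14, of the chromatin gene Dpf2 at -0.10 and of Sssca1 at -0.07 (edgeR adjusted p from 0.264 to 0.444). In homozygotes against wild type, 13 tested genes around Snhg11 and the place of Miat had a median log2 change of -0.09, against 0.0013 over all rows. Of these, 10 changes were negative, and 5 had an unadjusted edgeR p under 0.05, beside 16.1% of all rows. The shift of this list was not tested. By edgeR 1 of the 13 was called, the crystallin gene Cryba4, which fell. It had 0.197 to 0.390 CPM in homozygotes, 0.293 to 0.497 CPM in heterozygotes and 0.402 to 0.591 CPM in wild type, from 17 to 56 counts a library, and its log2 change in homozygotes against wild type was -0.70 (edgeR adjusted p = 0.038). The call was lost under 16 of 32 alternatives, 9 of them with 1 library left out (homozygous 4, 5, 6 or 8, or wild-type 2, 3, 4, 5 or 6), at adjusted p up to 0.0921 among these.

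Overlapping annotations could add reads to the 4 RNAs where strand was not used in counting. A row inside Malat1 on the opposite strand, Gm20417, held at most 1 count in any library. GENCODE M21 also places Gm37376 opposite Malat1 and Gm26906 opposite the end of Meg3, the microRNA genes Mir770 and Mir1906-1 within Meg3 and the small nucleolar RNAs Gm25129 and Gm25187 within Snhg11. These have no row of their own, and their part in the counts was not tested.

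Among 12 tested rows of other brain noncoding RNAs, Neat1 included, Dlx6as1 rose in homozygotes against wild type and 0 fell by edgeR, beside 1.56% of all rows, and the median of the list was 0.07. Dlx6as1, which runs opposite to the interneuron transcription factor gene Dlx6 and overlaps other rows of that locus, had 18.99 to 25.3 CPM in homozygotes with a median of 21.8, 17.7 to 19.1 CPM in heterozygotes with a median of 18.2, and 15.0 to 18.4 CPM in wild type with a median of 17.5. Its log2 change in homozygotes against wild type was 0.35 (SE 0.057, edgeR adjusted p = 0.00148). It is uncertain how reads were divided among the overlapping rows. The olfactory bulb and neuroblast markers also reached their highest sum in homozygotes, 183 CPM, and their part was not tested. Without the 7 libraries with a tissue score over 1, the change was 0.29 (edgeR adjusted p = 0.0666), with 3 homozygous libraries left. Of 33 alternatives only this 1 lost the call, and the log2 changes ran from 0.29 to 0.38. The call held with the ependymal, olfactory bulb and meningeal scores as covariates. The other 3 with the smallest p were 1700020I14Rik at 0.08, Sox2ot at 0.17 and A330008L17Rik at 0.19 (edgeR adjusted p from 0.240 to 0.261). Of 5 tested hosts of small nucleolar RNAs (Snhg3, Gas5, Snhg12, Meg3 and Snhg11), 0 were called, and the log2 changes ran from -0.08 for Meg3 to 0.11 for Snhg3. In heterozygotes against wild type and in homozygotes against heterozygotes, 0 genes of these lists were called by edgeR in the fit of all 20 libraries. In homozygotes against heterozygotes DESeq2 called Dlx6as1 (log2 change 0.26, adjusted p = 0.00705), beside 0.617% of all rows. There edgeR called it without wild-type library 6 (adjusted p = 0.0478) or without homozygous library 4 (adjusted p = 0.0354). In the trend per allele edgeR called Tardbp, Xrn2 and Dlx6as1 higher and Cryba4 lower, beside 1.83% of all rows. Without the 7 libraries with a tissue score over 1, these trend calls were lost (edgeR adjusted p = 0.0867 for Tardbp, 0.173 for Xrn2, 0.0972 for Dlx6as1 and 0.343 for Cryba4). Xrn2 lost its trend call under 3 of 32 alternatives, the other 2 being 3 surrogate variables and the ependymal, olfactory bulb and meningeal scores. Its trend per allele was 0.090 without the 7 libraries, 0.069 with 3 surrogate variables and 0.094 with the scores. Cryba4 lost it under 7 of 31, among them the absence of homozygous library 4 or 8 or of wild-type library 3 or 6. Tardbp and Dlx6as1 each lost it under 1 of 32, the absence of the 7 libraries.

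**Figure D4:**
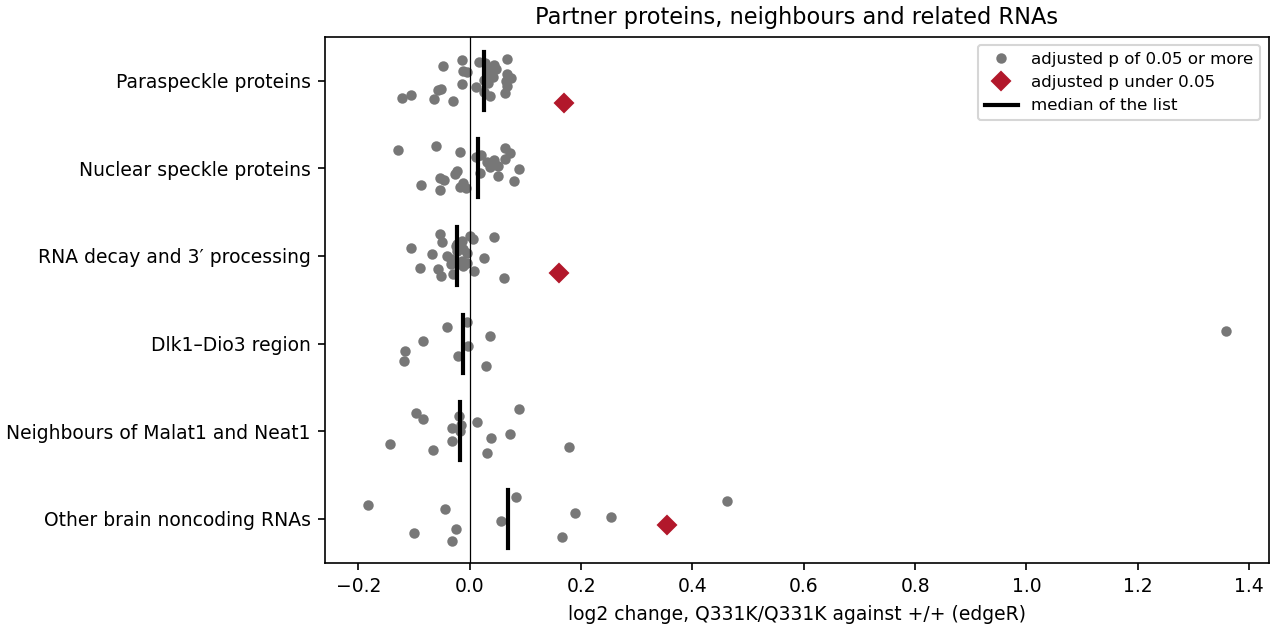
log2 change in homozygotes against wild type (edgeR, horizontal axis) of each tested gene of 6 lists, 1 point a gene, with a black line for the median of the list and red diamonds for genes at an adjusted p under 0.05. The diamonds are Tardbp at 0.17, Xrn2 at 0.16 and Dlx6as1 at 0.35, and the point far to the right is Dlk1 at 1.36, which was not called. The genes around Snhg11 and the place of Miat, with Cryba4, are not drawn. The hosts of small nucleolar RNAs and the splicing factors known to bind Miat are also left out.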

How the data were processed

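The authors deposited 1 table of unnormalised counts, whole numbers for 25965 rows and 20 libraries. A stranded kit for polyadenylated RNA with a shortened fragmentation was used, per the labels' protocols. Trim Galore 0.4.3, HISAT2 2.0.5 and the build GRCm38 were named, per the submitters' processing notes. For the counting program, the annotation and the use of strand, nothing is given in the sources used here.

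The counts were fitted in edgeR 4.0.16 (R 4.3.3) with TMM scaling, filterByExpr (16690 rows left) and robust quasi-likelihood tests by genotype, with all 20 libraries in 1 fit. A row was called where its p, adjusted by Benjamini-Hochberg over all rows tested, was under 0.05. Of the rows, 56 had no gene identifier and were kept. Levels are CPM with TMM factors, and permutation tests and correlations used log2 CPM (prior count 2). In 58 pairs of libraries within genotypes, chi-square per degree of freedom was at least 13.0, so no library was a copy of another of its genotype. Pairs across genotypes were not compared in this way. Of the table's identifiers, 24990 matched GENCODE M21. The fit was tested on simulated data. The rule for named genes took the listed RNAs, Tardbp, each called gene of a list or the 4 genes with the smallest p, and the 5 genes most like each RNA. Relations were planned for 21 pairs, and 6 could be computed.

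The RNAs and the gene lists were chosen with earlier results of these data known. Alternatives were DESeq2 1.42.0, other scalings and filters, voom (limma 3.58.1), 3 surrogate variables (sva 3.50.0), marker scores as covariates, the replicate number as a block and libraries left out. The replicate numbers did not pair the libraries. Leaving out the libraries with a tissue score over 1, the marker relations and the count ratios were chosen after seeing the data.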

Additional observations from a re-analysis of the deposited data

Results flagged for a closer look

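In 24 groups tested for a sample far from the others, 3 were found, where chance gives about 1 in 20 groups. Dlk1 in homozygous library 1 was the highest of 8 at 7.02 CPM. Rtl1, which lies beside Meg3 on the opposite strand, was the highest of 8 in the same library at 0.423 CPM, a level of 35 counts. Tardbp in heterozygous library 4 was the lowest of 6 at 215 CPM.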

How the results depend on the processing

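The number of the 4 RNAs called was 0 in each of the 4 comparisons under all 131 alternative fits, and 481 of 524 alternative log2 changes kept their sign. None of the others was called. For Malat1, homozygotes against wild type gave -0.033 with the replicate block, -0.0099 with voom and -0.020 with oligodendrocyte and excitatory neuron scores, and the trend gave -0.017, -0.0064 and -0.011 under the same settings. It moved most with 3 surrogate variables, to 0.176 and, in the trend, 0.068. Homozygotes against heterozygotes gave for Malat1 0.0057 with upper-quartile scaling, 5.0e-05 with a filter of 1 CPM in 6 libraries, 0.122 with 3 surrogate variables, 0.072 with ependymal, olfactory bulb and meningeal scores and 0.065 without the libraries with a tissue score over 1. With 3 surrogate variables, Meg3 gave 0.050 in homozygotes against wild type and 0.010 in the trend, Snhg11 gave 0.067 in homozygotes against wild type, 0.025 in the trend and 0.014 against heterozygotes, and Neat1 gave -0.0093 in heterozygotes against wild type. With the ependymal, olfactory bulb and meningeal scores, Snhg11 gave 0.0032 in homozygotes against wild type and 0.0048 in the trend, and Neat1 -0.028 in heterozygotes against wild type. Without the libraries with a tissue score over 1, Snhg11 gave 0.0025 in homozygotes against wild type and 0.0040 in the trend. The r of Neat1 and Meg3 was 0.17 with genotype means kept and 0.51 with the scores removed. The cause of these turns was not tested.

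With 1 library left out, Malat1 ran from -0.039 to 0.049 in homozygotes against wild type, from -0.023 to 0.046 in heterozygotes against wild type, from -0.054 to 0.035 in homozygotes against heterozygotes and from -0.020 to 0.025 in the trend. Meg3 ran from -0.0031 to 0.064 in heterozygotes against wild type. Snhg11 ran from -0.042 to 0.0076 in homozygotes against wild type and from -0.022 to 0.00030 in the trend.

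The number of all rows called in homozygotes against wild type was 261. It was 638 with DESeq2, 117 with 3 surrogate variables, 124 with the ependymal, olfactory bulb and meningeal scores, 32 without the libraries with a tissue score over 1, and 139, 148, 122, 115 and 147 without wild-type library 1, 3, 5 or 6 or homozygous library 5. Under the first 4 of these settings the trend gave 696, 114, 94 and 19 rows in place of 306, 159 without wild-type library 5 or 6 and 189 without homozygous library 5, and homozygotes against heterozygotes gave 103, 1, 6 and 0 in place of 18, 10 with upper-quartile scaling, 11 with no filter and 5 to 31 with 1 library left out. Same-numbered libraries did not deviate together (r from -0.10 to 0.14 in 18 pairs), and the replicate block gave 387 rows and 0 of the 4 RNAs. Leaving mitochondrial genes and the 4 RNAs out of the library size raised mean CPM, for Meg3 to 6025 in homozygotes, 6496 in heterozygotes and 6393 in wild type. The 4 RNAs had at least 7210 counts in each library, and whether depth limits them was not tested. Rtl1 and Cryba4 rest on few counts.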
